A study of Mus musculus with 18 samples.

Results

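The peptide hormone granule and processing genes are 10 genes, Chga, Chgb, Scg2, Scg3, Scg5, Vgf, Pcsk1, Pcsk1n, Cpe and Pam, chosen by gene symbol. All 10 were on the array, with 1 probe set each, among 19572 probe sets that carried a single symbol and stood for 19505 genes. Endocrine cells store peptide hormones in dense-core granules and release them on demand. Granins (Chga, Chgb, Scg2 and Scg3) condense the granule content, and Scg5 encodes the chaperone 7B2 of the convertase PC2. Vgf encodes a granin-like protein that is cut into secreted peptides. Inside the granule, the convertase PC1/3 (Pcsk1) cuts prohormones, and proSAAS (Pcsk1n) can inhibit it. Carboxypeptidase E (Cpe) then trims the basic residues that remain, and the monooxygenase encoded by Pam amidates the ends of many peptides. In the anterior pituitary these proteins serve cells that secrete growth hormone, prolactin, gonadotropins, thyrotropin and corticotropin.

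RNA from skin and from pituitary of C57BL/6 mice was hybridised to Clariom S arrays, an Affymetrix platform. Each tissue came from wild-type mice, from knockouts of MIR205HG, a long noncoding RNA (lncKO), and from knockouts of the microRNA miR-205 (miR-205 KO), without any treatment. There were 3 arrays in each of 6 groups, 18 arrays in all, from mice labelled female and 5 to 6 weeks old. Whether each array stands for its own mouse is not in the labels, so p-values measure the spread between these samples only. The labels give no construct for either deletion. The extraction text speaks of the ear for pituitary samples as well as for skin. No named probe set measured either deleted RNA, and the knockouts rest on the labels alone.

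The mature sequence of the deleted microRNA is shown because it defines 1 of the 2 knockouts. It lies at chr1:193507503-193507524 on the minus strand (RefSeq, GRCm38.p6), and the capitals mark its seed, bases 2 to 8.
miR-205-5p: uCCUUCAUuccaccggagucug

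The median intensity of an array lay between 82 and 96. Intensities correlated across probe sets with r of 0.970 to 0.993 between skin arrays and 0.987 to 0.993 between pituitary arrays, and with 0.781 to 0.819 between tissues. The tissue labels held against markers: 7 pituitary hormone genes summed to between 2810454 and 3565725 in pituitary arrays, and 5 keratinocyte genes to between 640439 and 1248002 in skin arrays. Those keratinocyte genes summed to no more than 107 in pituitary. The label female did not hold for pituitary, since the Y-linked Uty read 1869 to 2339 in every pituitary array and 6 to 13 in every skin array, so sex and tissue cannot be told apart here. Among skin arrays, wild-type array 1 stood apart by pituitary genes: growth hormone, Gh, read 2501 there, 29 and 76 in wild-type arrays 2 and 3, and 7 to 15 in knockout skin. That reading was 0.289% of the wild-type pituitary mean. By the same measure other pituitary genes were lower in that array: Prl was at 0.00876%, Cga at 0.00725%, Chgb at 0.0133% and Scg2 at 0.0042%. Each of them still had its highest skin reading in array 1. Prl read 72 there and 7 to 20 in the other skin arrays, and Cga 44 against 13 to 19. Chgb read 27 against 5 to 10, and Scg2 18 against 6 to 13.

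In wild-type animals, 9 of the 10 genes were higher in pituitary than in skin, and the tenth, Pam, did not pass the test. Tests were made with limma on log2 intensities, and a gene passed at an adjusted p under 0.05. Over all probe sets, 25.7% passed as higher in pituitary, and 27.8% had every wild-type pituitary array above every wild-type skin array, as did 9 of the 10 genes. The median difference of the 10 genes was 9.40 on the log2 scale, against -0.01 over all probe sets. Tissue contrasts in whole tissue do not separate fewer cells of a type from less RNA per cell.

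**Figure D1:**
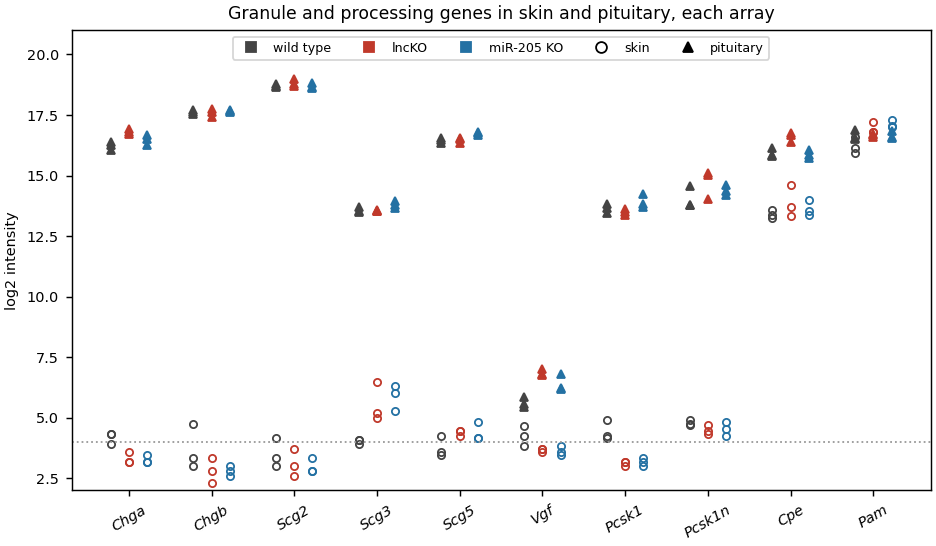
Log2 intensity (vertical axis) of each gene in each of 18 arrays, with circles for skin, triangles for pituitary and colours for genotype. The dotted line marks an intensity of 16, below which readings are treated as low. Pituitary and skin points do not overlap for 9 genes, and overlap for Pam.

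The granins and Scg5 had tissue gaps of 9.54 to 15.21 on the log2 scale. Scg2 read 418399, 449901 and 418671 in the wild-type pituitary arrays and 18, 8 and 10 in wild-type skin, a log2 difference of 15.21 ± 0.28 (SE, adjusted p = 6.07e-20, limma). Chgb read 216587, 199821 and 193700 against 27, 10 and 8, a difference of 13.94 ± 0.32. Chga read 84497, 78167 and 67959 against 20, 20 and 15, a difference of 12.04 ± 0.19. In all 3 genes every pituitary array lay far above every skin array. Scg3, the granin that links others to the granule membrane, read 11909, 11484 and 13152 against 17, 17 and 15, a difference of 9.54 ± 0.29. The chaperone gene Scg5 read 90876, 83006 and 97486 against 11, 12 and 19, a difference of 12.70 ± 0.22. These sizes depend on the dim skin readings: with readings under 16 raised to 16, the differences became 14.65 for Scg2, 13.38 for Chgb, 12.38 for Scg5 and 12.01 for Chga.

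The convertase gene Pcsk1 and its inhibitor gene Pcsk1n were also higher in pituitary (adjusted p = 1.56e-18 and 6.00e-17, limma). Pcsk1 read 12757, 11386 and 14540 in wild-type pituitary and 18, 30 and 19 in wild-type skin, a log2 difference of 9.21 ± 0.21. Pcsk1n, whose gene lies on chromosome X, read 24374, 14149 and 14057 against 27, 26 and 30, a difference of 9.26 ± 0.27. The first pituitary array lay above the other two for Pcsk1n, and no pituitary reading of either gene came near the skin readings.

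Cpe and Pam were also read strongly in skin, where their lowest readings were 9817 and 62239. Cpe read 56969, 72418 and 58843 in wild-type pituitary and 9817, 10535 and 12358 in wild-type skin, a 5.75-fold difference (log2 2.52 ± 0.26, adjusted p = 4.81e-08, limma). Pam read 93605, 119005 and 97336 in pituitary against 62239, 71182 and 98240 in skin, and the third skin array lay within the pituitary range. Its log2 difference was 0.44 ± 0.20 (adjusted p = 0.0750, limma). The Pam result lay near the threshold and changed with the setting. It stayed without a pass under median centring and in a fit of only the groups compared. At an unchanged 0.44 it passed with readings under 16 raised to 16 (adjusted p = 0.0440) and with 16 added (0.0396). With a variance trend and robust moderation it passed too (0.0253). With quantile normalization the difference was 0.85 and it passed (adjusted p = 0.00108). Without skin wild-type array 3 it also passed (adjusted p = 0.0166).

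Vgf had low readings in both tissues. It read 43, 47 and 58 in wild-type pituitary and 25, 19 and 14 in wild-type skin, a 2.60-fold difference (log2 1.38 ± 0.22, adjusted p = 2.02e-05, limma). The groups did not overlap, but the wild-type pituitary readings lay under the median intensity of an array.

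Over all genotypes, 8 genes read below 100 in every skin array, between 5 and 89, and the exceptions were Cpe and Pam. Of their 72 skin readings, 39 were at or below 16. At such readings a fold change depends on the few units of intensity that separate the groups.

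The 5′ flanks of the genes were searched for motifs because most of the genes shared the direction of their tissue difference. The window was 250 bases upstream of each RefSeq start (GRCm38.p6), on both strands. Of the 10 genes, 8 matched an entry, all but Vgf and Cpe, and Pam, which did not pass between tissues, was among them. The 8 genes had 9 windows. A gene was counted if any of its windows held the motif, while the background share counts single windows. The cyclic AMP response element TGACGTCA, to which factors of the CREB family bind, was in 3 of the 8 genes, Scg2, Chgb and Pcsk1, against 1.55% of 32851 windows. Its part TGACGT, which the palindrome contains, was in 5, adding Scg5 and Chga, against 6.47% of windows. The GC box GGGCGG was in 5 of 8 genes against 32.7%, TGANTCA in 1 against 6.75%, and TATAAA in 0 against 12.4%. A match describes the letters in a window and is not evidence of binding. The 120 bases before the start of the 3 genes with the palindrome, and of Chga with the shorter form, are shown, with TGACGTCA and any further TGACGT in capitals. Scg2 lies at chr1:79440027-79440146 (minus strand), Chgb at chr2:132781522-132781641 (plus), Pcsk1 at chr13:75089737-75089856 (plus) and Chga at chr12:102554821-102554940 (plus).
Scg2: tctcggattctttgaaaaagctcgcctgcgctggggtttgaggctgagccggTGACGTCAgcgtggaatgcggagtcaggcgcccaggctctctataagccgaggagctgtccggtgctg
Chgb: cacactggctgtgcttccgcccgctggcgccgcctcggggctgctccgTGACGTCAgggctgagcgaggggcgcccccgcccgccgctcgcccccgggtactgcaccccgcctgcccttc
Pcsk1: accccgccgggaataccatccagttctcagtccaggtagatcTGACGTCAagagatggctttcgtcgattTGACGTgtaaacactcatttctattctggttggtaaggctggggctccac
Chga: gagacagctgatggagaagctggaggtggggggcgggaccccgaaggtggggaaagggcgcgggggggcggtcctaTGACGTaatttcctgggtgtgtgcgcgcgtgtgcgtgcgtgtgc
The first base of the motif lay at -68 in Scg2, -72 in Chgb, -78 in Pcsk1 and -44 in Chga, counted from the start, and Pcsk1 held a further TGACGT at -50.

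In the pituitary, 1 of the 10 granule genes, Vgf, passed the test after loss of the long noncoding RNA, and it was higher in lncKO. Over all probe sets, 0.700% passed in either direction, and 12.5% had an unadjusted p under 0.05, as did 4 of the 10 genes. The median change of the 10 genes was 0.07 on the log2 scale, against 0.01 over all probe sets.

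**Figure D2:**
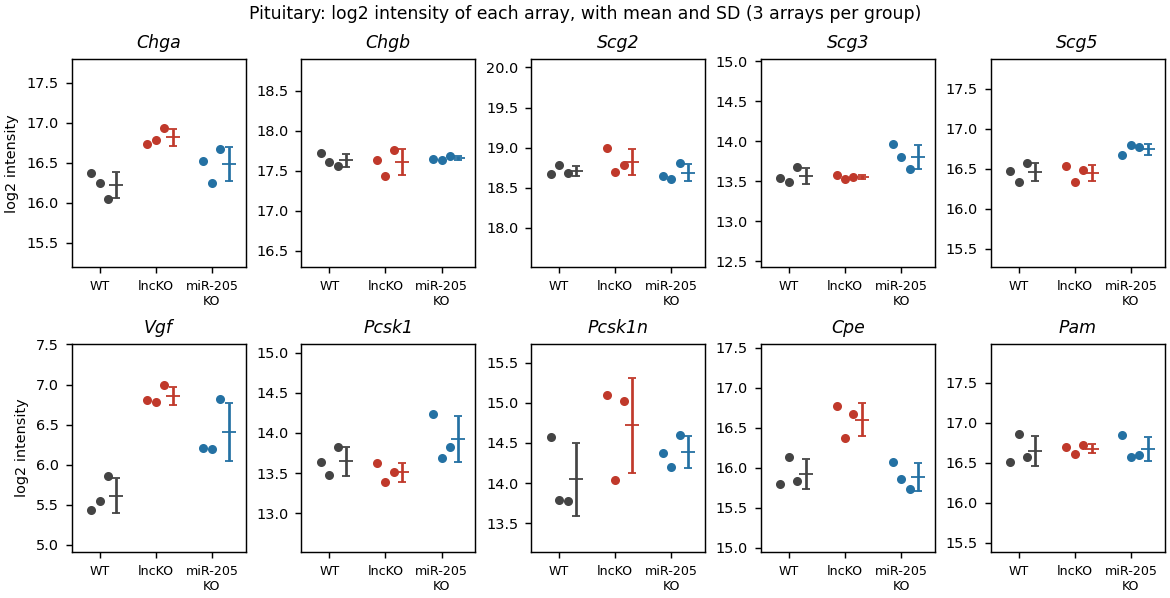
Log2 intensity (vertical axes) in each pituitary array by genotype, with the group mean and SD beside the 3 points. The panels differ in centre but share 1 span. The lncKO points lie above all wild-type points for Vgf, Cpe and Chga.

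Vgf read 43, 47 and 58 in wild-type pituitary, 112, 110 and 127 in lncKO and 74, 73 and 113 in miR-205 KO. The lncKO readings lay above every wild-type reading, and 1 miR-205 KO array reached them. The lncKO change was 2.37-fold (log2 1.25 ± 0.21, adjusted p = 0.0191, limma). The call was lost without any 1 of the 6 arrays, with adjusted p between 0.0563 and 0.0783. No pituitary reading of Vgf was as low as 16, and with readings under 16 raised to 16 its change stayed 1.25, but the adjusted p became 0.0848. The size of the change stayed between 1.15 and 1.37 on the log2 scale when an array was left out.

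Chga and Cpe showed smaller differences that did not pass. Chga read 84497, 78167 and 67959 in wild-type pituitary and 108603, 112428 and 125709 in lncKO, with no overlap (log2 0.59 ± 0.17, adjusted p = 0.169, limma). Cpe, which trims peptide ends, read 56969, 72418 and 58843 in wild-type arrays, against 111919, 84490 and 104042 in lncKO, also with no overlap (log2 0.67 ± 0.18, adjusted p = 0.133). The groups did not overlap for Vgf, Chga and Cpe, 3 of the 10 genes, and for 8.84% of all probe sets in the higher direction. With a variance trend and robust moderation, both passed (adjusted p = 0.0180 for Chga and 0.0142 for Cpe).

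Pcsk1n was uneven within groups. It read 24374, 14149 and 14057 in wild-type pituitary and 35119, 16852 and 33150 in lncKO, so that 1 lncKO array lay within the wild-type range (log2 0.67 ± 0.30, adjusted p = 0.380, limma). The remaining 6 genes changed by between -0.14 (Pcsk1) and 0.11 (Scg2) on the log2 scale. Scg2 read 523283, 422332 and 450778 in lncKO, which includes the wild-type level. Chgb read 204061, 176982 and 222530, Scg3 read 12244, 11818 and 11974, and Scg5 read 94422, 82761 and 92358, all around their wild-type readings. Pam read 105704, 99802 and 108159, and Pcsk1 read 12640, 10742 and 11706, both overlapping wild type.

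Markers of other cells also differed in the lncKO pituitary arrays, where 0.700% of all probe sets passed and 12.5% had an unadjusted p under 0.05. Tbx19, a transcription factor of corticotrophs and melanotrophs, read 6570, 3068 and 4622 in wild-type pituitary, against 12048, 15684 and 16730 in lncKO (log2 1.69 ± 0.27, adjusted p = 0.0171, limma). Crhr1, the receptor for corticotropin-releasing hormone, read 604, 431 and 461 against 951, 998 and 1027 (log2 1.01 ± 0.19, adjusted p = 0.0358). Pomc, the corticotropin precursor and the chief product of these cells, read 320377, 200655 and 276138 against 293248, 217681 and 357563, with wide overlap (log2 0.12 ± 0.26, adjusted p = 0.900). Of the corticotroph and melanotroph list, 2 of 4 measured genes passed as higher, and its summed level was 204193 to 327629 in wild type, 234414 to 375384 in lncKO and 168983 to 278005 in miR-205 KO. For the posterior lobe list, 0 of 5 genes passed and 3 had an unadjusted p under 0.05. Its summed level was 458 to 608 in wild type, 690 to 1027 in lncKO and 508 to 633 in miR-205 KO, and its member Nkx2-1 stayed at or below 16 in every pituitary array. For 5 nerve and Schwann cell genes the sum was 3839 to 4971, 6405 to 8202 and 5038 to 6488 in the same order, with 0 of 5 called and Prph at or below 16 in all. Of 5 pituitary stem and folliculostellate cell genes, 1 passed as higher, the transcription factor gene Sox2 (log2 1.07 ± 0.18, adjusted p = 0.0204), and the sum was 49738 to 61897 in wild type, 72786 to 86629 in lncKO and 44322 to 59399 in miR-205 KO. The gonadotroph list, with 0 of 4 genes called and 2 at an unadjusted p under 0.05, summed to 361605 to 411325, 466239 to 616374 and 354738 to 649366. Over 16 cell type lists, the sums of 7 lay higher in every lncKO array than in every wild-type array, and none lay lower. These 7 were the posterior lobe, nerve, stem cell, gonadotroph, endothelium, macrophage and leukocyte, and Merkel cell lists. A sum follows its brightest genes. In the endothelium list 1 gene went up and 2 went down (median -0.01), with 0 of 3 passing. Of the Merkel cell list 0 of 7 passed, and of the macrophage and leukocyte list 0 of 2. In the nerve list, where 4 genes went up and 1 down, Uchl1 read 3288 to 3692 in wild type and 4647 to 5602 in lncKO. The part of these cell types in the results for Vgf, Chga and Cpe was not tested.

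**Figure D3:**
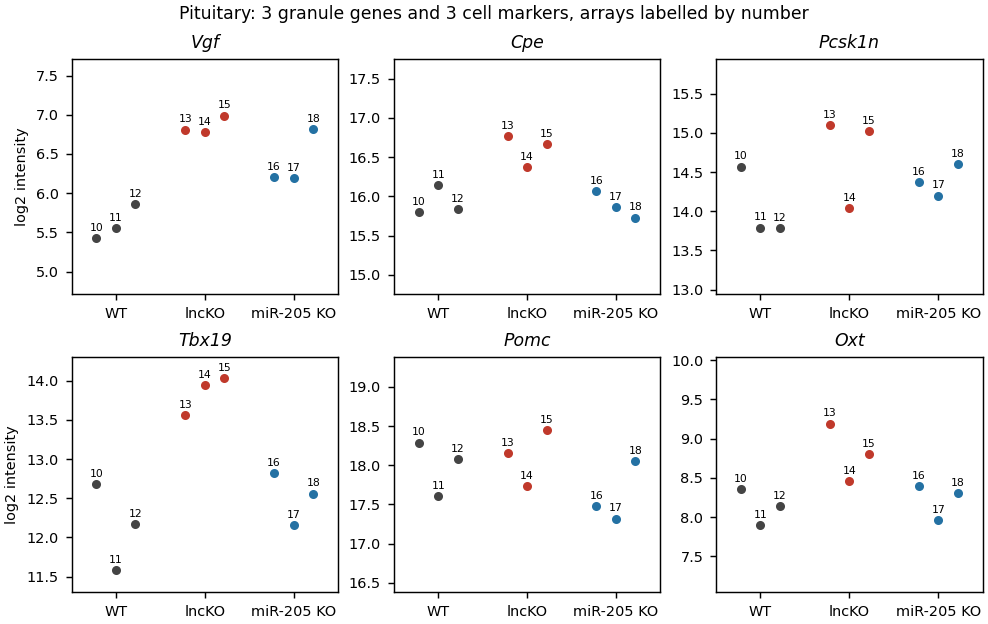
Log2 intensity (vertical axes) of 3 granule genes and 3 cell markers in the 9 pituitary arrays, each point labelled with its array number. Vgf and Tbx19 are higher in all 3 lncKO arrays than in wild type, and Pomc overlaps between groups.

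Loss of miR-205 moved none of the 10 genes past the test in pituitary, and 1, Vgf, had an unadjusted p under 0.05. Of all probe sets, 0.107% passed and 7.47% had an unadjusted p under 0.05. The median change was 0.24 on the log2 scale, against 0.01 over all probe sets. The same 3 wild-type arrays serve as control for both knockouts, so the results of both share their error. Vgf changed by 0.79 ± 0.21 (adjusted p = 0.361, limma), with no overlap. Scg5 read 103999, 114325 and 111996 in miR-205 KO against at most 97486 in wild type, a change of 0.29 ± 0.16 (adjusted p = 0.742). The groups did not overlap for these 2 genes, and for 5.89% of all probe sets in the higher direction. Chga read 93961, 77998 and 103920 (log2 0.25), Pcsk1 read 19312, 13224 and 14522 (0.27), Scg3 read 15944, 14228 and 12895 (0.23) and Pcsk1n read 21247, 18829 and 24765 (0.34), each overlapping wild type. For Cpe the change was -0.04, with readings of 69006, 59576 and 54239. Scg2 (409499, 399702 and 459867), Chgb (205077, 204887 and 210814) and Pam (117406, 97178 and 98597) overlapped wild type as well.

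Set directly against each other in pituitary, the knockouts differed in 0 of 10 genes by the test, and 2 genes, Cpe and Vgf, had an unadjusted p under 0.05. Among the probe sets as a whole, 0.291% passed and 11.1% had an unadjusted p under 0.05. Cpe was higher in lncKO than in miR-205 KO by 0.71 ± 0.18 (adjusted p = 0.145, limma), with no overlap, and passed with a variance trend and robust moderation (adjusted p = 0.0136). Chga arrays were likewise higher in lncKO, and those of Scg3, Scg5 and Pcsk1 lower, each without overlap, with adjusted p of 0.507, 0.597, 0.523 and 0.450. In all, 5 of 10 genes did not overlap, against 15.9% of all probe sets.

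In skin, where most of these genes were dim, the knockouts went together. Scg3 was higher and Chga and Pcsk1 were lower in both, and Pam was higher in miR-205 KO. In lncKO, 1 gene rose and 2 fell, where 6.21% of all probe sets rose and 9.17% fell (15.4% in either direction). In miR-205 KO, 2 rose and 2 fell, where 6.79% rose and 10.0% fell (16.8%). The median changes were -0.35 and -0.39, against -0.07 over all probe sets in each. Both comparisons share the 3 wild-type skin arrays, and 7 genes had an unadjusted p under 0.05 in each, against 30.9% and 32.1% of all probe sets. Knockout and wild-type arrays did not overlap for 5 genes in lncKO and 4 in miR-205 KO, against 31.5% and 34.9% of all probe sets. Without wild-type array 1, the one with the high Gh reading, the calls for Scg3 (1.56 in lncKO and 1.87 in miR-205 KO) and Pcsk1 (-1.46 and -1.41) held in both knockouts. That for Chga held in miR-205 KO (-0.85, adjusted p = 0.0425, limma) and was lost in lncKO (-0.81, adjusted p = 0.0540), and that for Pam in miR-205 KO was lost (0.76, adjusted p = 0.0674).

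**Figure D4:**
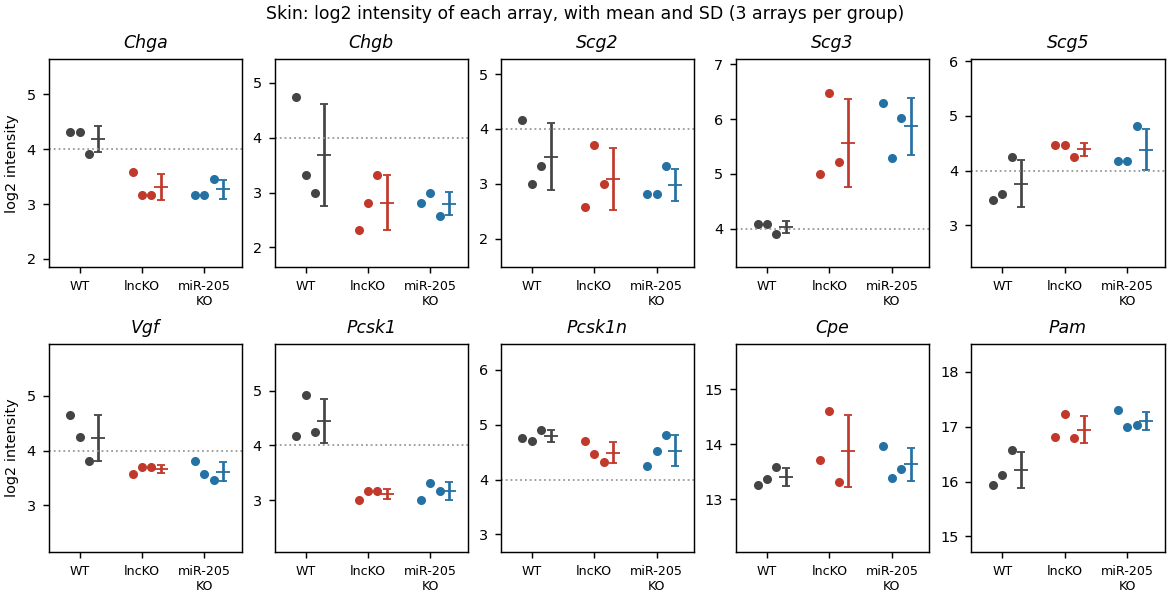
Log2 intensity (vertical axes) in each skin array by genotype, with the group mean and SD beside the 3 points and a dotted line at an intensity of 16. Panels differ in centre but share 1 span. Scg3 is higher in both knockouts, Pcsk1 and Chga lower, and much of the data for Chga, Chgb, Scg2, Vgf and Pcsk1 lies under the line.

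Scg3 read 17, 17 and 15 in wild-type skin, 32, 89 and 37 in lncKO and 78, 39 and 65 in miR-205 KO. Every knockout reading lay above the wild-type readings. The rise was 2.90-fold in lncKO (log2 1.53 ± 0.36, adjusted p = 0.0136, limma) and 3.57-fold in miR-205 KO (log2 1.84 ± 0.36, adjusted p = 0.00547). In lncKO the call was lost with readings under 16 raised to 16 (log2 1.50, adjusted p = 0.0797) and with 16 added to each reading, which made the change 0.99 (adjusted p = 0.0578). In miR-205 KO it passed under both (adjusted p = 0.0459 and 0.0282).

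Pcsk1 read 18, 30 and 19 in wild-type skin, 8, 9 and 9 in lncKO and 8, 10 and 9 in miR-205 KO. All knockout readings lay under 16, and none reached the wild-type ones. The gene fell by 1.33 ± 0.24 on the log2 scale in lncKO (adjusted p = 0.00337, limma) and fell by 1.28 ± 0.24 in miR-205 KO (adjusted p = 0.00407). Raising low readings to 16 left -0.44 in both, and neither passed (adjusted p = 0.191 and 0.184). Chga read 20, 20 and 15 in wild type, 12, 9 and 9 in lncKO and 9, 9 and 11 in miR-205 KO, so every knockout reading was the lower. It fell by 0.88 ± 0.22 in lncKO (adjusted p = 0.0198) and fell by 0.92 ± 0.22 in miR-205 KO (adjusted p = 0.0154). With low readings raised to 16 its change was -0.21 in both (adjusted p = 0.173 and 0.166). The lncKO call was also lost without wild-type array 1 or 2 or lncKO array 5 or 6 (adjusted p between 0.0540 and 0.0686). The miR-205 KO call was lost without wild-type array 2 or knockout array 7 or 8 (between 0.0509 and 0.0603).

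Pam, the amidating enzyme, was bright in skin. It read 62239, 71182 and 98240 in wild-type skin, 114613, 154248 and 113685 in lncKO and 161280, 130331 and 134160 in miR-205 KO, and no knockout array overlapped wild type. The gene rose 1.86-fold in miR-205 KO (log2 0.90 ± 0.24, adjusted p = 0.0220, limma), and its change of 0.74 ± 0.24 in lncKO missed the threshold (adjusted p = 0.0533). Quantile normalization ended the miR-205 KO call (log2 0.69, adjusted p = 0.0711), and it was also lost without wild-type array 1 or 2 or knockout array 7 (between 0.0644 and 0.0887). In lncKO, leaving out wild-type array 3 gave 0.92 and a pass (adjusted p = 0.0327), as did median centring (0.82, adjusted p = 0.0417).

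The other 6 genes did not pass in skin. Cpe read 9817, 10535 and 12358 in wild type, 13421, 24988 and 10140 in lncKO and 15995, 10711 and 11929 in miR-205 KO, with overlap. Scg5 read 11, 12 and 19 in wild type, 22, 22 and 19 in lncKO and 18, 18 and 28 in miR-205 KO, a change of 0.62 ± 0.26 in each. Vgf read 25, 19 and 14 in wild type, 12, 13 and 13 in lncKO and 14, 12 and 11 in miR-205 KO, changes of -0.57 ± 0.24 and -0.62 ± 0.24. Both genes were near the low end of the scale. Chgb read 27, 10 and 8 in wild type, 5, 7 and 10 in lncKO and 7, 8 and 6 in miR-205 KO. Scg2 read 18, 8 and 10, then 6, 13 and 8, then 7, 7 and 10 in the same order. For both, wild-type array 1 was the highest, and without it the Chgb change in lncKO went from -0.88 to -0.34 and that of Scg2 from -0.40 to -0.07. Pcsk1n read 19 to 30 in all skin arrays.

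Between the knockouts in skin, 0 of 10 genes passed, and none had an unadjusted p under 0.05. Over all probe sets, 0 passed with limma and 3.25% had an unadjusted p under 0.05. The differences ran from -0.30 ± 0.36 for Scg3 to 0.24 ± 0.30 for Cpe.

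Markers of other cells moved in skin as well. Of all probe sets there, 6.21% passed as higher and 9.17% as lower in lncKO, and 6.79% and 10.0% in miR-205 KO. Merkel cells are the neuroendocrine cells of skin, and 1 of 7 of their list, Krt8, passed as higher in both knockouts, while Atoh1, their defining transcription factor, stayed at or below 16 in every skin array. That list summed to 239 to 285 in wild type, 359 to 516 in lncKO and 442 to 470 in miR-205 KO. The higher sums rest on Krt8: the other 6 genes summed to 177 to 249, 159 to 250 and 150 to 225. Among them Piezo2, the touch channel of these cells, read 74 to 134, 53 to 90 and 49 to 94. Isl1 read 42 to 47, 22 to 43 and 21 to 47. These were the 2 of the 7 listed genes that went down in lncKO, where 5 went up (median 0.42). In miR-205 KO 4 went up and 3 down (median 0.32). Krt20 read 12 to 16 in wild type, 19 to 49 in lncKO and 15 to 22 in miR-205 KO. Sst read 27 to 38, 37 to 44 and 41 to 50. The adipocyte list summed to 8737 to 26420, 25987 to 46482 and 22461 to 42905 in the same order, with 2 of 4 genes higher in each knockout. The keratinocyte list summed to 640439 to 783977, 1056038 to 1248002 and 1117750 to 1240869, with 2 of 5 higher in each. The cartilage list, with 2 of 4 higher in each, summed to 17125 to 29106, 41273 to 76646 and 51878 to 65587. For fibroblasts, 1 of 4 measured genes was higher in each, and the sums were 754707 to 868297, 1063486 to 1302662 and 1137744 to 1231163. Skeletal muscle genes overlapped in sum (23268 to 55507, 21349 to 83956 and 29987 to 69359), with 1 of 4 higher in lncKO and 2 in miR-205 KO. For endothelium 0 of 3 passed, with sums of 1737 to 2461, 2579 to 2862 and 2201 to 3192. Of 5 nerve and Schwann cell genes, 1 fell in each knockout, with sums of 2004 to 3044, 1858 to 2801 and 1885 to 2587. Of 16 cell type lists, 6 had sums above every wild-type array in lncKO and 4 below. In miR-205 KO 4 lay above and 5 below. The lists below were somatotroph, lactotroph, gonadotroph and posterior lobe in both, and corticotroph and melanotroph in miR-205 KO. Their sums were low in skin: the posterior lobe list had 303 to 376, 131 to 157 and 130 to 140, and the gonadotroph list 87 to 127, 48 to 71 and 58 to 63. The part of these cells in the results for Scg3, Pcsk1, Chga and Pam was not tested.

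**Figure D5:**
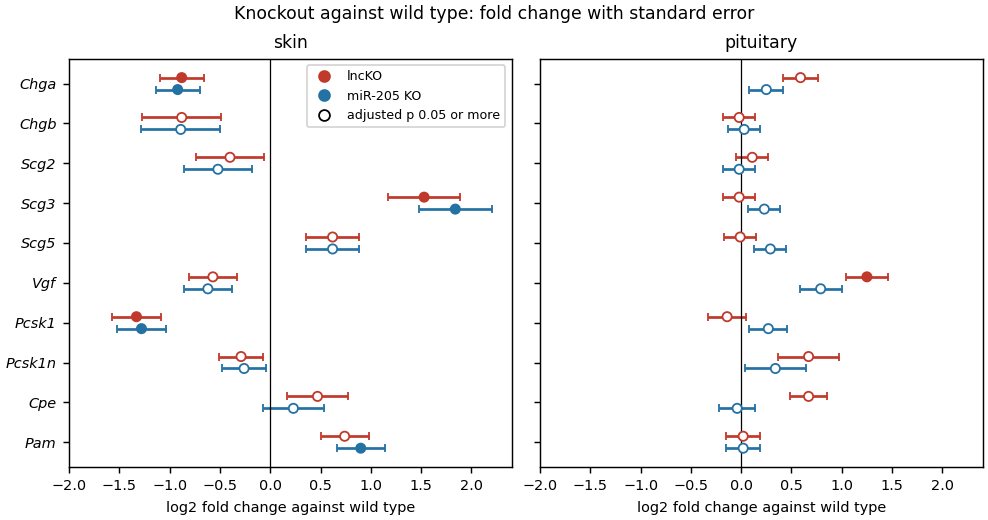
Log2 fold change against wild type (horizontal axis) of the 10 genes in skin and pituitary, with bars for the standard error and filled points for adjusted p under 0.05. In skin Scg3 and Pam lie to the right and Pcsk1 and Chga to the left in both knockouts, and in pituitary the filled point is Vgf in lncKO.

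The knockout effects of 4 genes differed between the tissues by the interaction test, the same 4 in both knockouts. Of all probe sets, 9.25% passed for lncKO and 9.95% for miR-205 KO. The effect was more positive in pituitary for Chga, Vgf and Pcsk1 and more negative for Scg3, whose pituitary changes were -0.02 in lncKO and 0.23 in miR-205 KO. For Vgf the lncKO effects were 1.25 in pituitary and -0.57 in skin, and the difference was 1.82 ± 0.31 (adjusted p = 0.00147, limma). With readings under 16 raised to 16, the Vgf difference was 1.54 in lncKO (adjusted p = 0.00317) and 1.09 in miR-205 KO (0.0190), both past the test. That of Scg3 was -1.52 in lncKO (0.0541, no longer past it) and -1.57 in miR-205 KO (0.0464). Chga kept its call in lncKO (0.81, 0.00878) and lost it in miR-205 KO (0.47, 0.0872), and Pcsk1 lost both (0.30, 0.530 and 0.71, 0.0980). Pcsk1 and Chga thus shrank under the floor. It could hardly move Scg3, whose lowest skin reading was 15. With 16 added, the Scg3 difference was -1.01 in lncKO (adjusted p = 0.0668, limma) and -0.98 in miR-205 KO (0.0731), neither past the test. Sex and tissue cannot be told apart in this contrast.

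Among other enzymes and helpers of peptide processing, 13 of 14 listed genes were measured, and 3 were higher and 8 lower in wild-type pituitary than in skin (median -0.79). Among all probe sets 25.7% were higher and 26.4% lower, with a median of -0.01. The higher ones were Ece1, which converts endothelin (2.79 ± 0.21), Qpctl, a glutaminyl cyclase (2.05 ± 0.30), and the convertase Pcsk6 (1.93 ± 0.19). Cpm, a surface carboxypeptidase, was lower by the most, with -3.80 ± 0.33. Of the other granule membrane, matrix and sorting genes, 18 of 19 were measured, and 14 were higher and 2 lower in pituitary (median 3.47). Those with the smallest p were Resp18, a granule luminal protein (12.48 ± 0.23), the granule membrane proteins Ptprn (10.00 ± 0.18) and Ptprn2 (9.70 ± 0.21), and Syt4, a synaptotagmin (9.30 ± 0.22). Resp18 read 6 to 11 in wild-type skin, and with readings under 16 raised to 16, a setting added for these 4 genes after their values were seen, its difference was 11.55, while the other three did not move. The lower ones, named after their values were seen, were Rab27b (-1.91 ± 0.22), a GTPase of granule transport, and the vesicular monoamine transporter Slc18a2 (-1.34 ± 0.35).

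In pituitary, 0 of 13 processing and 0 of 18 granule genes passed in lncKO, with limma unadjusted p under 0.05 for 2 and 1, and 0 and 0 passed in miR-205 KO, with 1 and 0. The shares of all probe sets that passed there were 0.700% and 0.107%, and those with an unadjusted p under 0.05 were 12.5% and 7.47%. In skin lncKO, 0 processing genes rose and 2 fell, Ece1 (-1.43 ± 0.24) and Qpctl (-1.56), with a median of -0.04. In skin miR-205 KO 3 fell, Ece1 (-1.09), Qpctl (-1.36) and the convertase Pcsk7 (-0.69), with a median of 0.02. Of the granule genes, 2 rose and 5 fell in each knockout, with medians of -0.30 and -0.54, where 6.21% and 6.79% of all probe sets rose, 9.17% and 10.0% fell, and the median was -0.07. Those that rose were Nucb2, the nesfatin precursor (1.05 in lncKO and 1.25 in miR-205 KO), and Cadps2, a priming factor for dense-core granules (1.38 and 1.16). Cadps2 was dim, at 11 to 29 in wild-type skin, 43 to 60 in lncKO and 37 to 44 in miR-205 KO. Among those that fell were Ptprn (-1.01 and -1.22) and the proton pump accessory subunits Atp6ap2 (-1.10 and -1.11) and Atp6ap1 (-0.89 and -1.04). Ptprn was dim too, at 51 to 53 in wild-type skin, 24 to 27 in lncKO and 20 to 25 in miR-205 KO.

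The genes most like each member were those with the smallest root mean square difference of centred log2 profiles over 18 arrays, among 19504 genes. For Scg2 these were Cga (0.37), Prl (0.54) and Chgb (0.62), the first being the shared hormone alpha subunit, beside a spread of Scg2 itself of 7.78. Chgb had Cga (0.42), Lhb (0.60) and Scg2 (0.62), and Chga had Snap25 (0.32), Fshb (0.36) and Elapor1 (0.51). Most of these are pituitary hormone or secretory genes, and the tissue gap sets most of each likeness. Scg5 had Elapor1 (0.37), Resp18 (0.44) and Rit2 (0.61), Pcsk1 had Ptprn, Cldn9 and Rab3b (each 0.39), and Pcsk1n had Ptprn2 (0.32), 6330403K07Rik (0.42) and Sez6l2 (0.43). Scg3 had Minar2 (0.56), Kcnip3 (0.57) and Usp29 (0.58). The members with smaller tissue gaps had other company. Vgf had Banp (0.21), Arf3 (0.28) and Rbm10 (0.33), Cpe had Pknox2 (0.29), Dnajc18 (0.30) and Tshz2 (0.33), and Pam had Specc1l (0.14), Efcab6 (0.15) and Itm2b (0.17). Their own spreads were small too, 1.31 for Vgf, 1.31 for Cpe and 0.33 for Pam. A smaller difference is therefore not a closer likeness between members.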

How the data were processed

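The authors deposited a linear intensity for every probe set of every array, as whole numbers (22206 probe sets, 4 to 1243875). How these were corrected, summarised and normalized, and the build, is not given in the sources used here, so the depth behind a value is unknown and precision rests on 3 arrays per group. Probe sets were named through a platform annotation table, with symbols updated by gene ID (19572 with 1 symbol, 2634 with none). Each tissue was fitted with limma 3.58.1 (R 4.3.3) on log2 intensity over its 9 arrays, and tissue contrasts and interactions over all 18. P-values were two-sided and Benjamini-Hochberg adjusted over 19572 probe sets, with a threshold of 0.05. The fit was tested on simulated data. The 10 genes and the lists were chosen with earlier results of these data known. Named were all 10 genes, up to 4 genes past the threshold by smallest p from each pathway list, and markers as summed levels. Tbx19, Crhr1, Pomc, Sox2, Krt8, Piezo2, Isl1, Krt20, Sst and the Y-linked gene were singled out after their values were seen. Alternatives were a floor of 16, 16 added, a filter on low probe sets, quantile normalization, median centring, trend with robust moderation, other sample sets and leaving out each array. The filter dropped probe sets whose mean log2 was under 5 in every group of the fit.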

Additional observations from a re-analysis of the deposited data

Results flagged for a closer look

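For 4 of the genes the knockout effect differed between pituitary and skin by the limma interaction test, in both knockouts. The differences, pituitary effect minus skin effect on the log2 scale, are as follows for lncKO. Chga differed by 1.47 ± 0.27 (adjusted p = 0.00257), Vgf by 1.82 ± 0.31 (0.00147), Pcsk1 by 1.19 ± 0.30 (0.0163) and Scg3 by -1.55 ± 0.42 (0.0246). For miR-205 KO, Chga differed by 1.17 ± 0.27 (adjusted p = 0.0112), Vgf by 1.41 ± 0.31 (0.00852), Pcsk1 by 1.55 ± 0.30 (0.00317) and Scg3 by -1.60 ± 0.42 (0.0202). The 2 knockouts share their wild-type arrays in each tissue.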

How the results depend on the processing

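No paired analysis was possible because the numbers in the labels run from 1 to 18 and none recurs between groups. No difference that passed the test, in any of these settings, changed its direction. For single genes and comparisons that passed the test, leaving out an array kept the call in 180 cases and lost it in 18, and other alternatives kept it in 164 and lost it in 15. For those that did not pass, a call was gained in 6 cases and absent in 456, and under other alternatives gained in 19 and absent in 471. The count of the 10 genes past the test was 3 in skin lncKO, but 0 with the floor of 16, 1 with the filter on low probe sets, which drops dim genes from the test, and 5 with all 18 arrays in one fit. It was 4 in skin miR-205 KO, but 2 with the floor, 2 with the filter and 6 with all 18 arrays (adding Chgb and Scg5, adjusted p = 0.0498 and 0.0434). In pituitary lncKO it was 1, but 0 with the floor and 3 with variance trend and robust moderation, which also raised lncKO against miR-205 KO from 0 to 1. For the difference of the lncKO effect between tissues it was 4, but 2 with the floor and 2 with 16 added. Leaving out 1 array at a time gave 2 to 4 in skin lncKO, 2 to 5 in skin miR-205 KO, 0 in pituitary lncKO for every array, 9 to 10 between wild-type tissues and 3 to 5 for both interactions. For Scg3 the lncKO interaction was lost with the floor (-1.52, adjusted p = 0.0541), with 16 added (-1.01, 0.0668) and without pituitary wild-type array 12 (-1.50, 0.0583), and for Pcsk1 with the floor (0.30, 0.530) and with 16 added (0.49, 0.161). The miR-205 KO interaction was lost with the floor for Chga (0.47, 0.0872) and Pcsk1 (0.71, 0.0980), and for Scg3 with 16 added (-0.98, 0.0731) or without skin array 7 (-1.39, 0.0590). Pam missed the miR-205 KO interaction (-0.88, adjusted p = 0.0543, limma). It passed with median centring (-1.01, 0.0412), the floor (0.0379), the filter (0.0438), 16 added (0.0301) and the trend (0.0167). Leaving out skin wild-type array 3 also gave a pass (-1.07, 0.0222), and quantile normalization did not (-0.60, 0.189). The causes were not tested.

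Over all probe sets, the count past the test was 3009 in skin lncKO (1937 with the floor, 1886 without lncKO array 4) and 3293 in skin miR-205 KO (2173 with the floor, 1668, 2127 and 2149 without arrays 7, 8 and 9). In pituitary lncKO it was 137 (11 with the floor, 239 with the filter, 307 with the trend, 59 with only the groups compared, 11 to 123 without 1 array). In pituitary miR-205 KO it was 21 (0 with the floor, 41 with the trend, 5 with only the groups compared, 4 to 8 without 1 array), and between knockouts in pituitary 57 (18, 133, 161, 27, and 110 with 16 added, 4 to 37 without 1 array). Between knockouts in skin it was 0 (6 with all 18 arrays, 1 without lncKO array 4), and for the lncKO interaction 1811 (1174 without pituitary wild-type array 12). The median change over all probe sets went from -0.07 in both skin comparisons to 0.01 or 0.02 after quantile normalization or median centring, and from 0.08 in both interactions to between -0.04 and -0.01. The split of higher and lower calls moved with scaling: in skin lncKO 1215 and 1794, but 1539 and 1514 after quantile normalization, and after median centring 1499 and 1458. In skin miR-205 KO it was 1328 and 1965, but 1643 and 1629, and 1677 and 1590. For the lncKO interaction it was 1151 and 660, but 893 and 832, and 864 and 838, and for the miR-205 KO interaction 1225 and 723, but 907 and 856, and 882 and 981.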

Other observations

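Several hormone and keratin genes outside the 10 also moved in skin, and are given because their values stood out when the lists were read. Of 7 pituitary hormone genes, 1 passed as higher and 1 as lower in lncKO, and 1 and 2 in miR-205 KO. The largest change was that of Gh, -4.42 and -4.05 on the log2 scale. Gh read 29 to 2501 in wild-type skin, with 2501 in array 1, 7 to 9 in lncKO and 9 to 15 in miR-205 KO. Oxt, the oxytocin precursor, read 199, 249 and 188 in wild-type skin, 37 to 58 in lncKO and 33 to 39 in miR-205 KO, and the groups did not overlap. It fell by 2.17 ± 0.23 in lncKO (adjusted p = 1.74e-04, limma) and fell by 2.59 ± 0.23 in miR-205 KO (adjusted p = 7.16e-05) on the log2 scale. Tshb, the thyrotropin beta subunit, read 16 to 24 in wild-type skin, 37 to 59 in lncKO and 40 to 63 in miR-205 KO, a rise of 1.34 ± 0.26 (adjusted p = 0.00579) and 1.33 ± 0.26 (0.00554). Krt8, a keratin of simple epithelia and Merkel cells, read 25 to 62 in wild-type skin, 191 to 266 in lncKO and 245 to 292 in miR-205 KO, a rise of 2.50 ± 0.30 (adjusted p = 3.20e-04) and 2.80 ± 0.30 (1.67e-04). In both knockouts these readings lay outside the wild-type range.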
